A study of Mus musculus with 12 samples.

Results

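Messenger RNA of 9 genes of the protease-activated receptor, thrombin and plasminogen system was measured in 3 mouse cell lines. The genes are F2r, F2rl1, F2rl2 and F2rl3 (the receptors PAR1, PAR2, PAR3 and PAR4), F3 (tissue factor), Thbd (thrombomodulin), Plat (tissue-type plasminogen activator), Plau (urokinase) and Plaur (the urokinase receptor). They are 9 of the 25128 genes and targets on the array, were taken by symbol, and were chosen by a list drawn up with measured values of these lines in view, so their levels and differences are given as a description without a test. Each gene had 1 target of 3 probes, 27 probes in all. The 4 plates labelled AtT20 are named for a neuroendocrine line from a mouse pituitary tumor, BV2 is a mouse microglial line and N18 is a mouse neuroblastoma line. There were 4 plates per line and 1 single-color array per plate, 12 arrays in all. The labels name no treatment for any plate, all were grown in DMEM with fetal bovine serum, and the microglial cells were kept in conditions meant to favor a resting state. Each line is a single established tumor or immortalized line, so the plates are replicate cultures of that line and their spread says nothing of other cells of the same type.

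Protease-activated receptors are G protein-coupled receptors that a protease switches on by cutting the extracellular end, which uncovers a tethered ligand. Thrombin, the coagulation protease made from prothrombin once tissue factor has started the cascade, acts on PAR1, PAR3 and PAR4, while trypsin-like proteases act on PAR2. Thrombomodulin turns thrombin toward the activation of protein C, and the plasminogen activators Plat and Plau convert plasminogen into plasmin, Plau while bound to its receptor Plaur. In the brain, thrombin receptors are known from neurons and glia, and microglia are a known source of urokinase.

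Promoter windows were found for 5 of the 9 genes, F2r, F2rl2, F2rl3, F3 and Plaur. The 4 printed here belong to the genes that stood above the expression threshold in N18 cells, and the 250 bases before the transcript start are shown 5′ to 3′ on the strand of the gene (RefSeq, mouse build GRCm38.p6). Capitals mark the AP-1 heptamer TGAGTCA or, read on the other strand, TGACTCA. The windows are F2r at chr13:95618467-95618716 on the minus strand, F2rl2 at chr13:95696670-95696919, F3 at chr3:121723287-121723536 and Plaur at chr7:24462233-24462482, the last 3 on the plus strand. The Plaur window ends at the start of one listed transcript, which lies inside the span of the gene.
F2r: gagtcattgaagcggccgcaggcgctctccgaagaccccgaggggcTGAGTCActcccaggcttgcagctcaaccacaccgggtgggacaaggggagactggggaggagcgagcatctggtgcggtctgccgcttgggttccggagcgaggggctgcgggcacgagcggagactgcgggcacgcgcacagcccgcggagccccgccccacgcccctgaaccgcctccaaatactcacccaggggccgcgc
F2rl2: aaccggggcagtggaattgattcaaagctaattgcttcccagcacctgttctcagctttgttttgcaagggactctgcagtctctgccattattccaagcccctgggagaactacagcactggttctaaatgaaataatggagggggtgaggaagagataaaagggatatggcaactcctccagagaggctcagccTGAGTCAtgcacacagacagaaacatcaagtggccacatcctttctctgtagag
F3: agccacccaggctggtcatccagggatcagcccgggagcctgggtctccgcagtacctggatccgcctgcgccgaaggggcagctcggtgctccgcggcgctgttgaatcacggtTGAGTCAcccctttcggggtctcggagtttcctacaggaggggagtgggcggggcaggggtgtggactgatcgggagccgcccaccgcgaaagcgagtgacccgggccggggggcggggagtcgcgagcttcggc
Plaur: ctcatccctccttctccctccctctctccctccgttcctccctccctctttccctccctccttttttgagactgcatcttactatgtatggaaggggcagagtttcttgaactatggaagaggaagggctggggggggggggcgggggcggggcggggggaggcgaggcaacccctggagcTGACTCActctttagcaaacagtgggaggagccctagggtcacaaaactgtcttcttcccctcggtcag
The heptamer was chosen after the windows had been read. It occurred 1 time in each of the 4, beginning 204 bases before the start in F2r, 54 in F2rl2, 135 in F3 and 69 in Plaur. It did not occur in the window of F2rl3 (chr8:72761409-72761658, plus strand). Since it was picked from these windows, and Plat, Plau, F2rl1 and Thbd had no window, nothing about expression is read from it. Of 32851 mouse windows of the same length, 4.46% held it on either strand. The GC box GGGCGG, also searched on both strands, occurred 1 time in F2r, 3 times in F3 and 3 times in Plaur, against 32.7% of all windows. The letters TATAAA and CCAAT were in none of the 5 windows and in 12.4% and 33.9% of all windows, respectively. The GC content of the printed windows was 70.8% in F2r, 48.4% in F2rl2, 70% in F3 and 59.6% in Plaur. These matches describe the letters, and binding was not measured.

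A level here is the log2 of the mean intensity of a gene's probes on a plate minus the mean of 10 seminal proteins on that plate, genes that these cells are not thought to express. On each plate 2 SD of those proteins set a limit, and a gene was called above threshold in a line when its 4-plate mean was higher than the average of the 4 limits. This threshold was 0.74 ± 0.10 for N18, 0.56 ± 0.15 for BV2 and 0.37 ± 0.11 for the plates labelled AtT20 (SD, n = 4). Differences between lines are given on the log2 scale after quantile normalization of the 12 arrays, with the difference in levels beside them where both matter. The plates labelled AtT20 stood apart in ways that touch every comparison with them. The interquartile range of the log2 probe values was 0.38 to 0.78 on those arrays, against 1.28 to 1.73 in BV2 and 1.91 to 2.21 in N18. Only 1 of 6 corticotroph markers, Pitx1, was above threshold there. Pomc, the hormone precursor that defines the cell type, had a mean level of 0.29 ± 0.26 (SD, n = 4) and was below it, while 7 of 12 neuroblastoma markers were above, with the neurofilament gene Nefl at 4.46 ± 0.48. The corticotroph markers were above threshold for 2 of 6 in BV2 and 3 of 6 in N18, and the neuroblastoma markers for 6 of 12 in BV2, so the counts of both lists differed little between BV2 and the plates labelled AtT20. BV2 plates had 9 of 10 microglial markers above threshold, Aif1 excepted, against 3 of 10 in N18 and 2 of 10 on the plates labelled AtT20. N18 plates had 11 of 12 neuroblastoma markers above threshold, Nefl excepted. Endothelial and fibroblast markers, genes of other cells that carry these receptors, were above threshold for 1, 3 and 3 of 6 and for 3, 2 and 3 of 6 in AtT20, BV2 and N18, in that order. Of all genes and targets, 35.0%, 53.3% and 55.4% were above threshold in the same order. Nothing is read from marker counts near these shares. Each slide holds 4 arrays and which plates shared one is not known here, so slide and line cannot be told apart.

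The genes above threshold differed between the lines. In N18, 5 of the 9 genes were above threshold, namely F2r, F2rl2, F3, Plat and Plaur, where 55.4% of all 25128 genes and targets were. BV2 had 3 of 9, F2rl2, Plau and Plaur, against 53.3% of all, and the plates labelled AtT20 had 1 of 9, Plaur, against 35.0%. F2rl1, F2rl3 and Thbd were below threshold in every line. Since the genes were chosen with these values in view, nothing is read from the counts. In RNA of a whole plate, fewer expressing cells and less RNA per cell cannot be told apart.

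**Figure D1:**
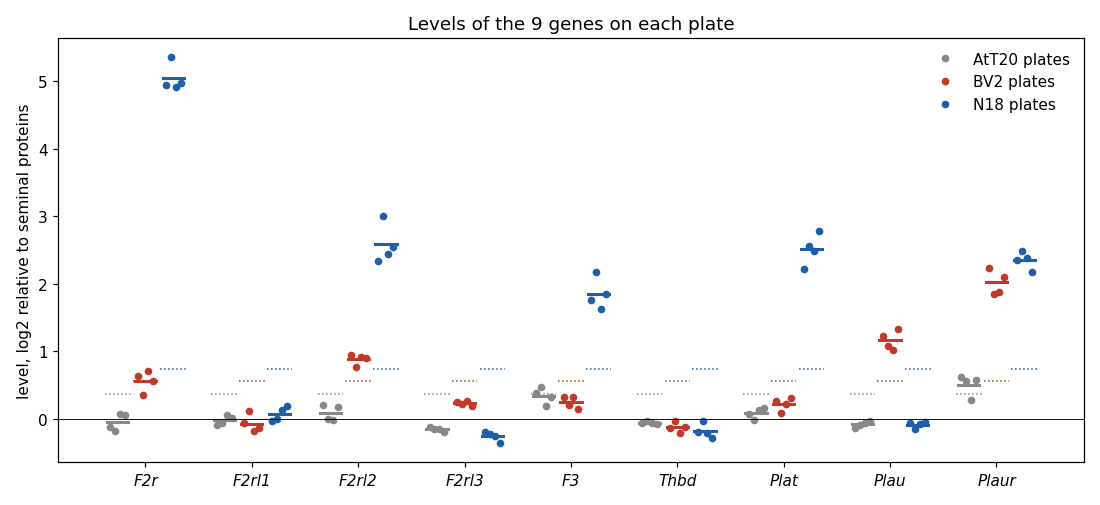
Level of each of the 9 genes (log2 relative to the seminal proteins, vertical axis) on every plate, with a point per plate, a bar at the mean of 4 plates and a dotted line at the threshold of that line. F2r on the N18 plates sits between 4.91 and 5.36, far above every BV2 and AtT20 plate, while F2rl1 and Thbd lie near 0 in all lines.

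F2r, the thrombin receptor PAR1, had the largest difference between N18 and BV2 of the 9 genes. Its level on the N18 plates was 4.94, 5.36, 4.91 and 4.97, with a mean of 5.05 ± 0.21 (SD, n = 4). On the BV2 plates it was 0.64, 0.36, 0.70 and 0.55, and on the plates labelled AtT20 it was -0.13, -0.18, 0.06 and 0.05. No N18 plate overlapped with a plate of another line, and all BV2 plates lay above all AtT20 plates on this scale, though these groups overlapped after quantile normalization. The BV2 mean, 0.56 ± 0.15, was level with the threshold to 2 decimals and fell just short of it, with 2 of 4 plates above their own thresholds. F2r was 3.83 ± 0.15 (SE) higher in N18 than in BV2 after quantile normalization and 4.48 higher in levels. Because F2r was not called in BV2 or on the plates labelled AtT20, its fold is given as a lower bound, in which a plate of the dimmer line counts at its threshold or at its own value, whichever was higher, and the smaller of the results on both scales is kept. By this bound F2r was at least 14.1-fold higher in N18 than in BV2 and at least 8.5-fold higher than on the plates labelled AtT20. These bounds hold for the mean of a gene's probes, and with the median of the probes the quantile-normalized difference of F2r between N18 and BV2 was 3.36. F2r was called in BV2 when the arrays were quantile normalized first.

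The 3 probes of F2r each stood high in N18, at 5.79 ± 0.25, 4.62 ± 0.10 and 4.26 ± 0.26. In BV2 only the first probe passed, at 0.91 ± 0.11, with the others at 0.18 ± 0.24 and 0.50 ± 0.20. No F2r probe passed on the plates labelled AtT20.

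F2rl2 encodes PAR3, a receptor that thrombin cuts and that is known to act as a cofactor for PAR4. It was above threshold in N18 and in BV2. The N18 plates gave 2.34, 3.01, 2.44 and 2.55, a mean of 2.58 ± 0.30, and the BV2 plates 0.94, 0.77, 0.91 and 0.90, a mean of 0.88 ± 0.08. The plates labelled AtT20 gave 0.20, 0.00, -0.01 and 0.17. The order of the lines was thus N18, BV2, AtT20, and no plates of neighbouring lines overlapped in levels, while BV2 and AtT20 overlapped after quantile normalization. The difference between N18 and BV2 was 0.98 ± 0.12 (SE) after quantile normalization and 1.70 in levels. F2rl2 was at least 1.4-fold higher in N18 than on the plates labelled AtT20.

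The BV2 level of F2rl2 came from a single probe. Its first probe had a mean of 1.66 ± 0.12 in BV2, and the others had 0.35 ± 0.14 and 0.07 ± 0.29, below the threshold. All of its probes passed in N18, at 3.35 ± 0.36, 2.32 ± 0.23 and 1.45 ± 0.27. The same first probe also passed on the plates labelled AtT20, at 0.50 ± 0.22, although the gene did not.

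F2rl1, or PAR2, the receptor for trypsin-like proteases, and F2rl3, or PAR4, the low-affinity thrombin receptor, were not called in any line. F2rl1 ranged from -0.09 to 0.06 on the plates labelled AtT20, from -0.19 to 0.11 in BV2 and from -0.04 to 0.19 in N18. Its plates overlapped between all lines and none of its probes passed. F2rl3 was at -0.13 to -0.20 on the plates labelled AtT20, 0.20 to 0.27 in BV2 and -0.20 to -0.36 in N18. All BV2 plates of F2rl3 lay above all plates of the other lines, but only the last of its probes passed in BV2, at 0.73 ± 0.17, and the gene stayed below threshold, so no fold is given.

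**Figure D2:**
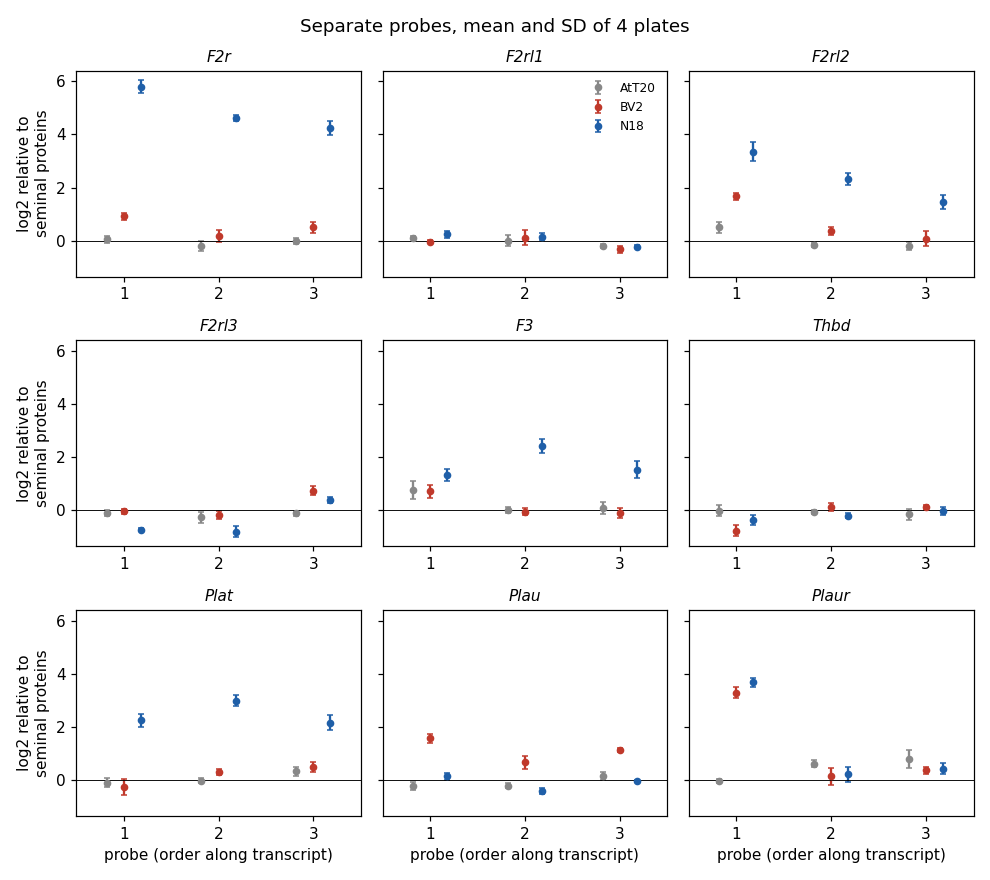
Mean and SD over 4 plates of each separate probe of the 9 genes (log2 relative to the seminal proteins, vertical axis) in the order of the probe number (horizontal axis), with a color per line. The probes of F2r, Plat and Plau stand together in the line where the gene passed, whereas Plaur rests on its first probe in BV2 and N18, at 3.29 and 3.67.

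F2rl1, F2r and F2rl2 lie close together on chromosome 13. F2r and F2rl2 had the same order of lines in their level means, N18 above BV2 above AtT20, with F2rl2 at 2.58, 0.88 and 0.09, while F2rl1 was below threshold in each. In the order of the GRCm38.p6 annotation the protein-coding genes of this stretch are Zbed3, Aggf1, Crhbp, S100z, F2rl1, F2r, Iqgap2, F2rl2, Sv2c, Poc5, Ankdd1b and Polk, of which S100z, Iqgap2, Sv2c and Ankdd1b had no matched target. F2rl1 and Crhbp, the corticotropin-releasing hormone binding protein, were below threshold in N18 at 0.07 ± 0.11 and 0.05 ± 0.04, between genes that were above it. Zbed3 and Aggf1 on one side had N18 levels of 3.46 ± 0.27 and 2.47 ± 0.26, and Poc5, a centriole gene, had 2.22 ± 0.30 on the other. Polk, a DNA polymerase gene farther along on that side, was below threshold in every line, at 0.43 ± 0.10 in N18. Zbed3, Aggf1 and Poc5 were also above threshold in BV2, at 1.85 ± 0.42, 1.80 ± 0.18 and 0.60 ± 0.17, where F2r was not. On the plates labelled AtT20 Zbed3, Aggf1 and Poc5 were at 0.10 ± 0.12, 0.22 ± 0.11 and -0.07 ± 0.20. Their order of lines was thus that of F2r and F2rl2. The median difference in levels over all genes and targets ran the same way, at 0.18 for N18 against BV2 and 0.28 for BV2 against AtT20.

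**Figure D3:**
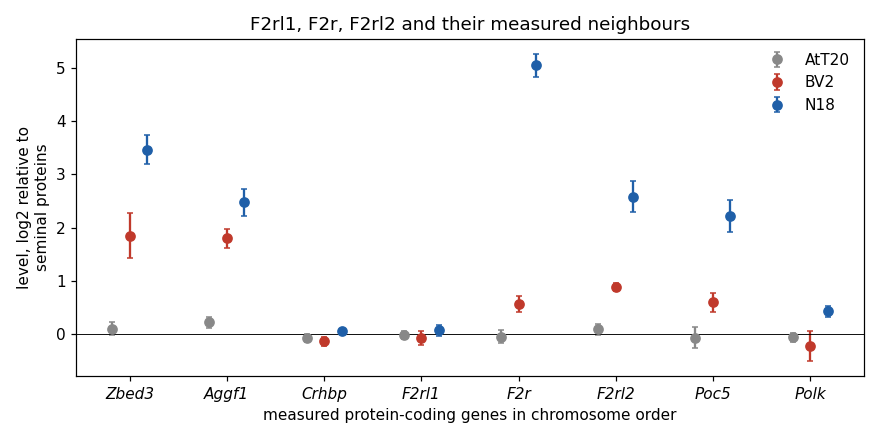
Mean level and SD over 4 plates (log2 relative to the seminal proteins, vertical axis) of F2rl1, F2r, F2rl2 and the measured genes around them in chromosome order. In N18, F2r at 5.05 stands beside F2rl1 at 0.07.

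F3, tissue factor, the membrane protein that starts coagulation, was above threshold in N18. The N18 plates gave 1.76, 2.17, 1.62 and 1.84, a mean of 1.85 ± 0.23, and the BV2 plates gave 0.32, 0.20, 0.32 and 0.15. The plates labelled AtT20 gave 0.39, 0.47, 0.20 and 0.32, of which 1 was above its own threshold. All N18 plates lay above all others in levels, and BV2 and AtT20 overlapped. F3 was 0.96 ± 0.10 (SE) higher in N18 than in BV2 after quantile normalization and 1.60 higher in levels, which is at least 1.6-fold. Against the plates labelled AtT20 the picture depended on the scale, with a difference of 1.51 in levels and of 0.07 ± 0.10 (SE) after quantile normalization, where the plates overlapped. The first F3 probe passed in all lines, at 0.77 ± 0.33, 0.72 ± 0.25 and 1.34 ± 0.23 in AtT20, BV2 and N18, and the others passed in N18 alone, at 2.42 ± 0.27 and 1.53 ± 0.32.

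Thbd, the thrombin-binding cofactor of protein C activation, was not detected above threshold in any line. Its levels ran from -0.08 to -0.04 on the plates labelled AtT20, from -0.21 to -0.03 in BV2 and from -0.29 to -0.03 in N18. None of its probes passed, and the lines overlapped in levels.

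Plat and Plau, the activators of plasminogen, were called in different lines. Plat was at 2.22, 2.56, 2.49 and 2.78 on the N18 plates, a mean of 2.51 ± 0.23. It was at 0.26, 0.08, 0.23 and 0.31 in BV2 and at 0.06, -0.02, 0.14 and 0.15 on the plates labelled AtT20. The N18 plates lay clear of all others. Plat was 1.51 ± 0.14 (SE) higher in N18 than in BV2 after quantile normalization and 2.29 higher in levels, at least 2.2-fold, and at least 1.3-fold higher than on the plates labelled AtT20. All probes of Plat passed in N18, at 2.24 ± 0.25, 2.98 ± 0.21 and 2.16 ± 0.28, and none passed elsewhere.

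Plau ran the other way. Its BV2 plates gave 1.23, 1.09, 1.01 and 1.33, a mean of 1.17 ± 0.14. The N18 plates lay between -0.16 and -0.04 and the plates labelled AtT20 between -0.14 and -0.04, so that BV2 was separate from both and these overlapped with each other. Plau was lower in N18 than in BV2 by a difference of -1.18 ± 0.10 (SE) after quantile normalization and of -1.25 in levels, and BV2 was at least 1.3-fold higher. For BV2 against the plates labelled AtT20 the lower bound of the fold was 0.8, so no minimum fold is given. With olfactory receptor controls Plau was not called in BV2. Its probes all passed in BV2, at 1.56 ± 0.17, 0.66 ± 0.26 and 1.13 ± 0.09, and in no other line.

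Plaur, the membrane anchor of urokinase, was the only one of the 9 genes called in every line. With the median of the probes it was called in neither BV2 nor N18, and with 3 SD or olfactory receptor controls it was not called on the plates labelled AtT20. The N18 plates gave 2.35, 2.49, 2.38 and 2.18, a mean of 2.35 ± 0.13, and the BV2 plates 2.24, 1.86, 1.88 and 2.10, a mean of 2.02 ± 0.18. The plates labelled AtT20 gave 0.62, 0.55, 0.27 and 0.57, a mean of 0.50 ± 0.16, below every plate of the other lines in levels. After quantile normalization N18 was only 0.17 ± 0.11 (SE) above the plates labelled AtT20 and overlapped with them. BV2 was 0.41 ± 0.11 (SE) above them on that scale, without overlap. N18 and BV2 overlapped, and the sign of their difference turned with the scaling, from -0.24 ± 0.11 (SE) after quantile normalization to 0.33 in levels and 0.30 without normalization.

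Different probes carried Plaur in different lines. The first probe had 3.29 ± 0.21 in BV2 and 3.67 ± 0.18 in N18 and was below threshold on the plates labelled AtT20, at -0.04 ± 0.08. The other probes were above threshold only on the plates labelled AtT20, at 0.61 ± 0.13 and 0.80 ± 0.34, with 0.14 to 0.42 in the other lines. The call on the plates labelled AtT20 and the calls in BV2 and N18 thus shared no probe.

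Taking levels plate by plate, 4 of the 9 genes (F2r, F2rl2, F3 and Plat) had every N18 plate above every BV2 plate, where 38.0% of all genes and targets did, and 2 (F2rl3 and Plau) had every N18 plate below every BV2 plate, where 12.7% did. F2rl1, Thbd and Plaur overlapped. Against the plates labelled AtT20, 5 genes (F2r, F2rl2, F3, Plat and Plaur) had every N18 plate above, where 57.0% of all genes and targets did, and none had every N18 plate below, where 13.2% did. For BV2, 5 genes (F2r, F2rl2, F2rl3, Plau and Plaur) had every plate above those labelled AtT20, where 45.2% of all did, and none had every plate below, where 12.8% did. These counts use the values the genes were selected on and nothing is read from them. They also depend on the scale. After quantile normalization F2r and F2rl2 overlapped between BV2 and AtT20, and F3, Thbd and Plat had every BV2 plate below every AtT20 plate. On that scale F3 and Plaur overlapped between N18 and AtT20, and Thbd had every N18 plate below. Shares over all genes and targets were not taken on that scale, and nothing is read from it either. The median difference of all genes between N18 and AtT20 was -0.25 in the quantile-normalized values, -0.85 in the values as deposited and 0.54 in levels.

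**Figure D4:**
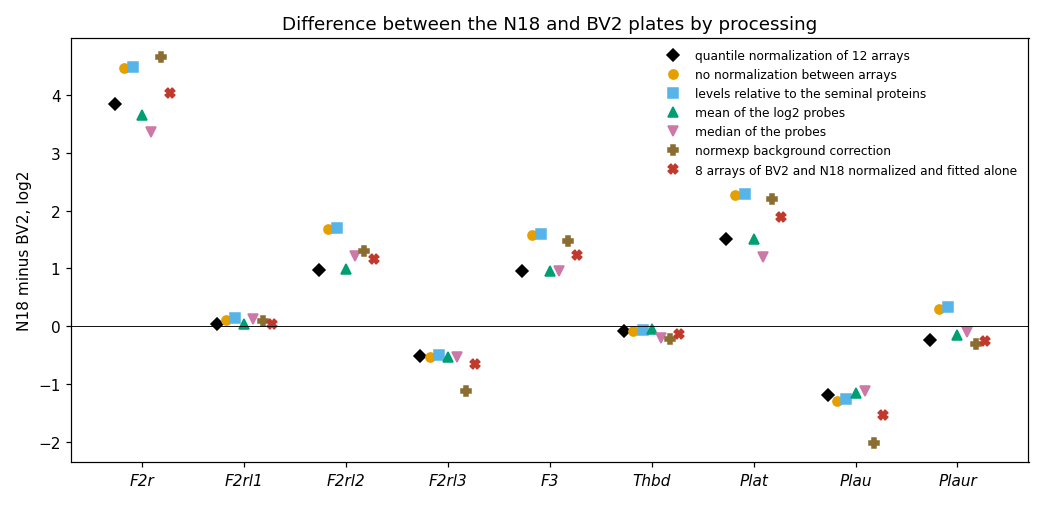
Difference between N18 and BV2 (log2, vertical axis) of the 9 genes under 7 ways of processing, with a symbol for each. F2r lies between 3.36 and 4.65, Plau stays below 0, and Plaur falls on both sides of 0.

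Of 86 other genes of the pathway, 85 had a matched target. Of these 85, BV2 had 43 above threshold, N18 had 38 and the plates labelled AtT20 had 32. Between N18 and BV2, limma called 14 higher and 29 lower in N18, and 42 did not pass. Their median difference was -0.13, beside -0.06 for all genes and targets. Levels relative to the seminal proteins gave 24 higher and 20 lower, and the values as deposited 18 higher and 12 lower, so the balance turns with the scale. Over all genes and targets, 19.0% were called higher and 21.9% lower. The adjusted p values that follow are from limma over all 25128 genes and targets, and SE is the error of the fit.

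Neither F2, which encodes prothrombin, nor Plg, which encodes plasminogen, was above threshold in any line, at 0.16, 0.02 and -0.03 for F2 and 0.29, 0.26 and 0.29 for Plg in AtT20, BV2 and N18. Of 16 coagulation factors, none was higher and 6 were lower in N18 than in BV2, with a list median of -0.24. F5, the cofactor of factor Xa, was lower in N18 by a difference of -0.58 ± 0.10 (adjusted p = 0.000157), with levels of 0.92 ± 0.14 in N18 and 1.26 ± 0.27 in BV2. F10, the precursor of factor Xa, and F8, a cofactor of its activation, differed by -0.37 ± 0.11 (adjusted p = 0.0141) and -0.36 ± 0.09 (adjusted p = 0.00425), and all 3 calls were lost without normalization. F10 was nearly equal in levels, at 0.92 ± 0.09 in N18 and 1.01 ± 0.08 in BV2. F8 was at 0.59 ± 0.14 in BV2, near the threshold, and at 0.37 ± 0.05 in N18, below it. The lower bound of its fold was 0.9, so no minimum fold is given.

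Of 8 anticoagulant genes, 2 were higher and 2 lower in N18. Pros1, protein S, the cofactor of activated protein C, was at 3.00 ± 0.26 in N18 and -0.13 ± 0.12 in BV2, at least 3-fold higher (adjusted p = 1.31e-08). Procr, the endothelial receptor of protein C, was at 2.66 ± 0.18 in N18 and 2.61 ± 0.40 in BV2. Its quantile-normalized difference was -0.55 ± 0.10 (adjusted p = 0.000405) but turned to 0.052 in levels.

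Of 18 partners of the plasminogen system, 4 were higher and 8 lower in N18, with a median of -0.22. Itgb2 and Itgam, the chains of the integrin that binds Plaur on myeloid cells, were at 4.68 ± 0.34 and 4.34 ± 0.42 in BV2. In N18 they were at 0.61 ± 0.16 and 0.80 ± 0.07, so that Itgb2 was at least 15.3-fold higher in BV2 (adjusted p = 1.27e-14) and Itgam differed by -3.74 ± 0.12 (adjusted p = 3.65e-13). Itgam is itself one of the microglial markers. Lrp1, the endocytic receptor that clears activator and inhibitor complexes, was above threshold in all lines and lower in N18 by a difference of -1.55 ± 0.13 (adjusted p = 8.83e-08). Mrc2, a collagen receptor that joins the urokinase receptor complex, was at 2.30 ± 0.17 in N18 and 0.29 ± 0.07 in BV2, at least 2-fold higher (adjusted p = 9.21e-07).

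Of 14 measured other proteases that can cut these receptors, none was higher and 4 were lower in N18. Ctss, cathepsin S, a lysosomal protease of myeloid cells, was at 3.56 ± 0.48 in BV2 and -0.31 ± 0.05 in N18, at least 7-fold higher in BV2 (adjusted p = 1.36e-12). Mmp13, a collagenase, was at 1.68 ± 0.34 in BV2 and -0.11 ± 0.06 in N18, at least 1.9-fold higher in BV2 (adjusted p = 1.08e-10). St14, the membrane protease matriptase, and Ctsg, cathepsin G, differed by -0.99 ± 0.16 (adjusted p = 7.96e-05) and -0.52 ± 0.12 (adjusted p = 0.00173), and the call for Ctsg was lost without normalization and in levels.

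Of 20 genes of receptor signaling, 7 were higher and 6 lower in N18, with a median of 0.05. Plcb4, a phospholipase C of neurons, was at 3.66 ± 0.29 in N18 and -0.28 ± 0.09 in BV2, at least 4.7-fold higher in N18 (adjusted p = 1.42e-10). Gna12 and Gna13, G protein subunits that couple to PAR1, were each 1.36 higher in N18 (SE 0.13 and 0.14, adjusted p = 2.52e-07 and 9.82e-07). Arrb2, an arrestin that desensitizes G protein-coupled receptors, was above threshold in all lines and lower in N18 by a difference of -1.76 ± 0.12 (adjusted p = 6.7e-09).

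Of 9 substrates of plasmin and urokinase, 1 was higher and 3 lower in N18. Fn1, fibronectin, was at 4.10 ± 0.17 in N18 and -0.18 ± 0.12 in BV2, at least 6.8-fold higher in N18 (adjusted p = 2.02e-11). Tgfb1, a latent growth factor that plasmin can activate, differed by -1.90 ± 0.17 (adjusted p = 1.36e-07), with 3.19 ± 0.42 in BV2. The stromelysin Mmp3 differed by -0.51 ± 0.11 (adjusted p = 0.000927). Its levels were 0.61 ± 0.22 in BV2, near the threshold, and 0.17 ± 0.15 in N18, below it. The lower bound of its fold was 0.9, so no minimum fold is given.

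**Figure D5:**
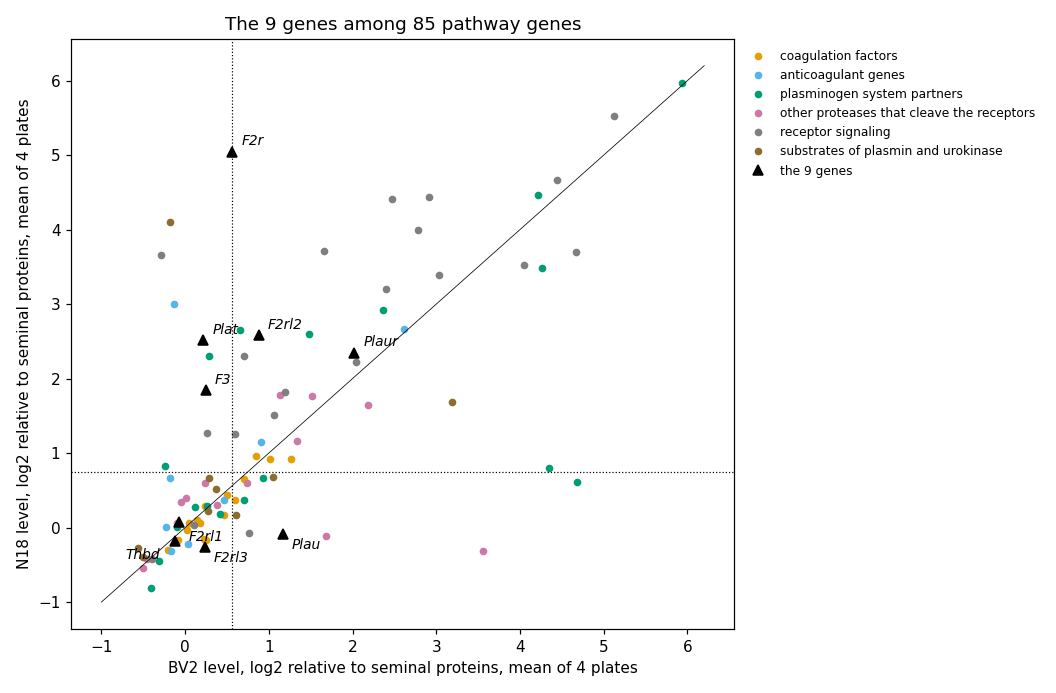
Mean level of 4 plates in N18 (vertical axis) against BV2 (horizontal axis), both log2 relative to the seminal proteins, for 85 pathway genes by list and for the 9 genes as triangles. Dotted lines mark the thresholds and the thin line marks equal levels, and Plat and F3 sit left of the BV2 threshold and above that of N18, F2r on the BV2 line at 0.56, and Plau on the opposite side.

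On the plates labelled AtT20, the pathway genes above threshold included F10, Vwf, Proc, Anxa2, S100a10, Eno1, Lrp1, Mrc2, Itgav, Itgb3, Prss1, St14, Klk6, Ctsg, Prtn3, Tpsb2, Gna12, Gnaq, Gna11, Gnai2, Arrb2, Plcb1, Plcb3, Arhgef1, Rhoa, Rock1, Rock2, Prkca, Tgfb1, Mmp2 and Fn1. Genes of plasminogen receptors were among them, with Anxa2 at 3.84 ± 0.58 and its partner S100a10 at 1.37 ± 0.31. These 2 genes were above threshold in BV2 and N18 as well, at 4.22 and 4.47 for Anxa2 and 2.37 and 2.92 for S100a10. Vwf, the platelet adhesion protein, was at 1.29 ± 0.66 and Proc, protein C, at 0.77 ± 0.43, and neither Proc in BV2 or N18 nor Vwf in N18 passed. Limma called 17 of 85 higher and 50 lower in N18 than on these plates, where it called 27.8% and 48.6% of all genes and targets. In BV2 it called 20 higher and 48 lower, against 26.6% and 47.0% of all. The same fit called 8 of the 10 seminal proteins lower in N18 and 6 of 10 lower in BV2 than on these plates. Between N18 and BV2 it called 0 of them. A call of lower against the plates labelled AtT20 is therefore not read as a difference in expression. Relative to the seminal proteins the balance turned, with 41 higher and 18 lower in N18 and 39 higher and 18 lower in BV2.

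For each of the 6 genes called in some line, the genes with the most similar pattern were taken as those with a symbol whose centred level had the smallest root mean square difference over the 12 plates. For F2r these were Emid1 (0.155) and Fgfr1 (0.166), for F2rl2 Heca (0.102) and Aspm (0.105), and for F3 Aph1b (0.0984) and Pacsin1 (0.0994). Nbl1 (0.0888) and Prkar2b (0.122) were nearest to Plat, and Tapbpl (0.0952) and Snrpb2 (0.100) to Plaur. Plau was matched most closely by Lpl (0.0900) and Trem3 (0.102), of which Lpl was at 0.94 in BV2 and -0.19 in both other lines. The 12 points fall into 3 lines, so these values mostly compare the means of the 3 lines.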

How the data were processed

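Total RNA of 12 plates, 4 per line, was hybridized to single-color NimbleGen mouse arrays with 72000 probes. Per the paper's methods, each plate was extracted separately. The deposited values are log2 Cy3 intensities per probe, which the authors extracted with the NimbleScan software and transformed. No background subtraction or normalization between arrays was found in them. Probes belonged to 25631 targets, of which 69.4% were matched to a symbol through the GRCm38.p6 gene table, and targets of a gene (433 genes had several) were averaged. Cd68 and Tpsab1 are not analysed here, and a result for a single pathway gene is not reported here, though the counts include it.

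The 9 genes, the pathway lists and the rule for named genes (every one of the 9, up to 4 called genes with the largest N18 to BV2 difference per list that were above threshold in either line, all pathway genes above threshold on the plates labelled AtT20, and the 2 most similar genes) were chosen with earlier results of these data known. Levels used the threshold of the study's statistics. Lines were compared in R 4.3.3 with limma 3.58.1 (lmFit, then eBayes with an intensity trend) on quantile-normalized values of the 12 arrays, with Benjamini-Hochberg adjustment over 25128 genes and targets and a threshold of 0.05. The fit was tested on simulated data. The alternatives covered the threshold, controls, probe summary, normalization, background correction (normexp, offset 50), a filter, a minimum difference of 1, a replicate block, the 8 arrays of a pair, and leaving out each plate. Promoters came from the RefSeq table. The number of arrays limits the precision. Figures were drawn with Python 3.11.15 and matplotlib 3.10.9.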

Additional observations from a re-analysis of the deposited data

Results flagged for a closer look

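F2r on N18 plate 2 had a level of 5.36, apart from the other N18 plates, which lay between 4.91 and 4.97. The gap to its nearest neighbour, divided by the range of the 4 plates, was 0.855, above Dixon's critical value for 4 samples. It was the only one among 27 groups of plates examined, 9 genes in 3 lines, and chance flags about 1 in 20 such groups. Without that plate the N18 call of F2r was unchanged.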

How the results depend on the processing

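Of the 9 genes, 5 stayed above threshold in N18 under each alternative but the median of the probes, which gave 4 and lost Plaur. On the plates labelled AtT20 the count was 0 with 3 SD and 0 with olfactory receptor genes as controls, both losing Plaur, and 1 to 2 when a plate was left out, F3 joining without plate 4. In BV2 it was 1 with olfactory receptor controls (Plaur) and 1 with the median of the probes (Plau), and 3 to 4 when a plate was left out, F2r joining without plate 2 or plate 3, and also with quantile normalization first, which gave 4. Among the 85 pathway genes, levels relative to the seminal proteins gave 24 higher and 20 lower in N18 than in BV2, 41 higher and 18 lower in N18 than in AtT20, and 39 higher and 18 lower in BV2 than in AtT20. Without normalization 18 were higher and 12 lower in N18 than in BV2, and 12 were higher and 66 lower in BV2 than in AtT20. With a difference of at least 1, the counts were 7 higher and 8 lower for N18 against BV2, 9 and 14 for N18 against AtT20, and 13 and 14 for BV2 against AtT20. With only genes above threshold in a line, 27 were lower in N18 and 25 in BV2 than in AtT20. Leaving out a plate gave 13 to 14 higher and 25 to 28 lower for N18 against BV2, 14 to 19 and 48 to 51 for N18 against AtT20, and 18 to 20 and 47 to 51 for BV2 against AtT20. The difference of Plaur between N18 and BV2 reversed to 0.30 without normalization and 0.33 relative to the seminal proteins, and that of Procr to 0.022 and 0.052. With the median of the probes F10 and F8 lost their calls. Where no cause shows in the construction of an alternative, the cause was not tested. Normalizing and fitting the 8 arrays of BV2 and N18 alone, chosen after seeing the data, gave 17 pathway genes higher and 41 lower, and F2r at 4.03, Plat at 1.90 and Plau at -1.54. Plates of the same replicate number showed no common pairing. Their correlations of deviations ran from -0.11 to 0.32, the highest for replicate 2 of N18 and BV2. A fit with a replicate block gave 14 higher and 29 lower for N18 against BV2. The signal over background limits what can be said of genes near the threshold.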
